A study of Homo sapiens with 5 samples.

Results

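The genes described here are MYC and 29 genes that MYC is known to activate, most of which build ribosomes in the nucleolus. They were taken from a fixed list of 30 symbols, matched by Ensembl ID, out of 58812 gene IDs in the count table. RNA was measured by sequencing in 5 libraries of C4-2B, an established castration-resistant prostate cancer line. The clone C4K13A gave 2 libraries, the clone C5K13A gave 1, and parental C4-2B gave 2. Both clones carry HOXB13 K13A, in which lysine 13 of this prostate homeobox factor, an acetylation site, is replaced by alanine, and all 5 libraries came from cells in C4-2B media. Each clone is a single line, so a feature of the clone and an effect of K13A cannot be told apart, and the series asked which transcripts depend on that lysine.

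MYC is a transcription factor that pairs with MAX and binds the E-box CACGTG. Its targets include RNA polymerase I, which transcribes ribosomal RNA, the small nucleolar RNPs (snoRNPs) that modify it, and the factors that assemble it with ribosomal proteins into the small and large ribosomal subunits. MYC is often overexpressed in prostate cancer, where nucleoli are typically enlarged.

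Library totals ran from 43190276 to 57282373 counts, with 27337 to 30647 genes detected, and the 30 genes together held 242658 to 327922 counts per library. Luminal prostate markers were high in each library (KLK3 at 1859 to 3103 CPM, the count scaled to a fixed library total), against summed levels of at most 0.511 CPM for 3 basal epithelial and 0.160 CPM for 3 leukocyte markers. The 3 fibroblast markers summed to 3.67 to 6.69 CPM, nearly all from COL1A1, with DCN at most 0.0471 CPM and LUM at 0. The 3 endothelial markers summed to 2.66 to 5.70 CPM, mostly VWF, and CD3E, a T cell marker, was at 0. Fibroblast sums were 5.11 and 3.67 CPM in C4K13A cells and 5.44 CPM in C5K13A cells, against 6.57 and 6.69 CPM in parental cells, and endothelial sums were 3.35 and 2.66 CPM in C4K13A cells and 4.34 CPM in C5K13A cells, against 5.70 and 5.61 CPM in parental cells. Their part in the results was not tested. Residual mitochondrial ribosomal RNA was 63.2 and 365 CPM in the C4K13A libraries, 669 CPM in the C5K13A library, and 28.03 and 1761 CPM in the parental libraries. These are bulk libraries scaled to a common total, so a change in RNA per cell or in cell number does not show in CPM.

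The RefSeq promoter table (GRCh38.p14), which gives 250 bases before and 50 after a gene start, held 24 of the 30 genes. MYC, TCOF1, NOP58, NOLC1, BOP1 and RRP12 had no entry. The E-box CACGTG, which reads the same on both strands, occurred in the window of 12 of the 24 genes. It occurred in 12.5% of 11555 genes that were both tested and in the table, and in 7.26% of all 35116 windows. It lay within 50 bases of the start in 10 of the 12 genes, so in 10 of the 24, against 5.13% of the 11555 genes. The first 8 genes with a match, in order of role, are shown to let the sites be compared; each stretch reads 5′ to 3′ on the gene's strand with the E-box in capitals.
FBL: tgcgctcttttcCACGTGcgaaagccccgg
RRP9: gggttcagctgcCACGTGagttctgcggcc
PES1: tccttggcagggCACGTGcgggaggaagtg
UTP20: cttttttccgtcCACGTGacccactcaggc
RCL1: cctgttccaaacCACGTGgacgcgtctggg
MRTO4: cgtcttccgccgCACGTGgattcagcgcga
NOP2: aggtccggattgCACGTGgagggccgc
GNL3: ggcttcagttcaCACGTGgcgccagcggag

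The FBL stretch is chr19:39846356-39846385 on the minus strand, RRP9 chr3:51941892-51941921 (minus), PES1 chr22:30591880-30591909 (minus) and UTP20 chr12:101280083-101280112 (plus). The RCL1 stretch is chr9:4792936-4792965 (plus), MRTO4 chr1:19251807-19251836 (plus), NOP2 chr12:6568242-6568268 (minus) and GNL3 chr3:52686026-52686055 (plus). Counted with the start in the RefSeq promoter table as base 1, the E-box begins at base 7 in FBL and GNL3, 5 in RCL1, 14 in PES1, 15 in MRTO4 and 36 in NOP2. This start can differ from the gene bounds in GENCODE v29. Those of PES1 run from 30576625 to 30607083 and those of GNL3 from 52681156 to 52694492, so both stretches lie inside the gene. The stretches of FBL, RRP9, RCL1, MRTO4 and NOP2 lie inside their GENCODE bounds as well. The E-box begins 5 bases before the RefSeq start in RRP9 and 10 before it in UTP20. LYAR, PUS7, ODC1 and SRM hold the E-box as well. These matches describe the letters in the window and do not show binding.

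MYC itself was at similar levels in all 5 libraries. It had 583 and 525 CPM in the C4K13A libraries and 487 CPM in the C5K13A library, against 601 and 539 CPM in the parental libraries. The groups overlapped, since C4K13A library 1 lay between both parental values. Over all K13A libraries the fitted log2 fold change was -0.10 ± 0.16 (SE; 95% interval -0.46 to 0.26; adjusted p = 0.851 by edgeR's quasi-likelihood test). By clone it was -0.04 ± 0.18 for C4K13A against parental (adjusted p = 0.954) and -0.22 ± 0.23 for C5K13A against parental (adjusted p = 0.885). C5K13A against C4K13A gave -0.18 ± 0.23 (adjusted p = 0.994). MYC lies on chromosome 8 (127735434 to 127741434, plus strand, GRCh38 in GENCODE v29; ENSG00000136997).

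In the K13A libraries as a group, 24 of the 30 genes had positive log2 fold changes against parental, with a median of 0.13, but none passed the threshold of an adjusted p under 0.05. All 30 passed the filter on low counts. Over all 20649 genes tested 0.203% were called (0.0145% higher, 0.189% lower) and 49.4% had positive fold changes, with a median of -0.00474. At an unadjusted p under 0.05 there was 1 of the 30 genes, GNL3, against 11.0% of all genes. DESeq2 and limma-voom also called 0 of the 30, against 555 and 11 of the 20649 genes. They had 1 and 2 of the 30 at an unadjusted p under 0.05, against 2474 and 2403 of all genes. In 5 genes (POLR1B, NOLC1, BOP1, UTP20 and LYAR) each K13A library was above both parental libraries, and in NPM1 and GNL3 each was below both. Over all genes tested 13.6% were above without overlap and 14.9% below.

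**Figure D1:**
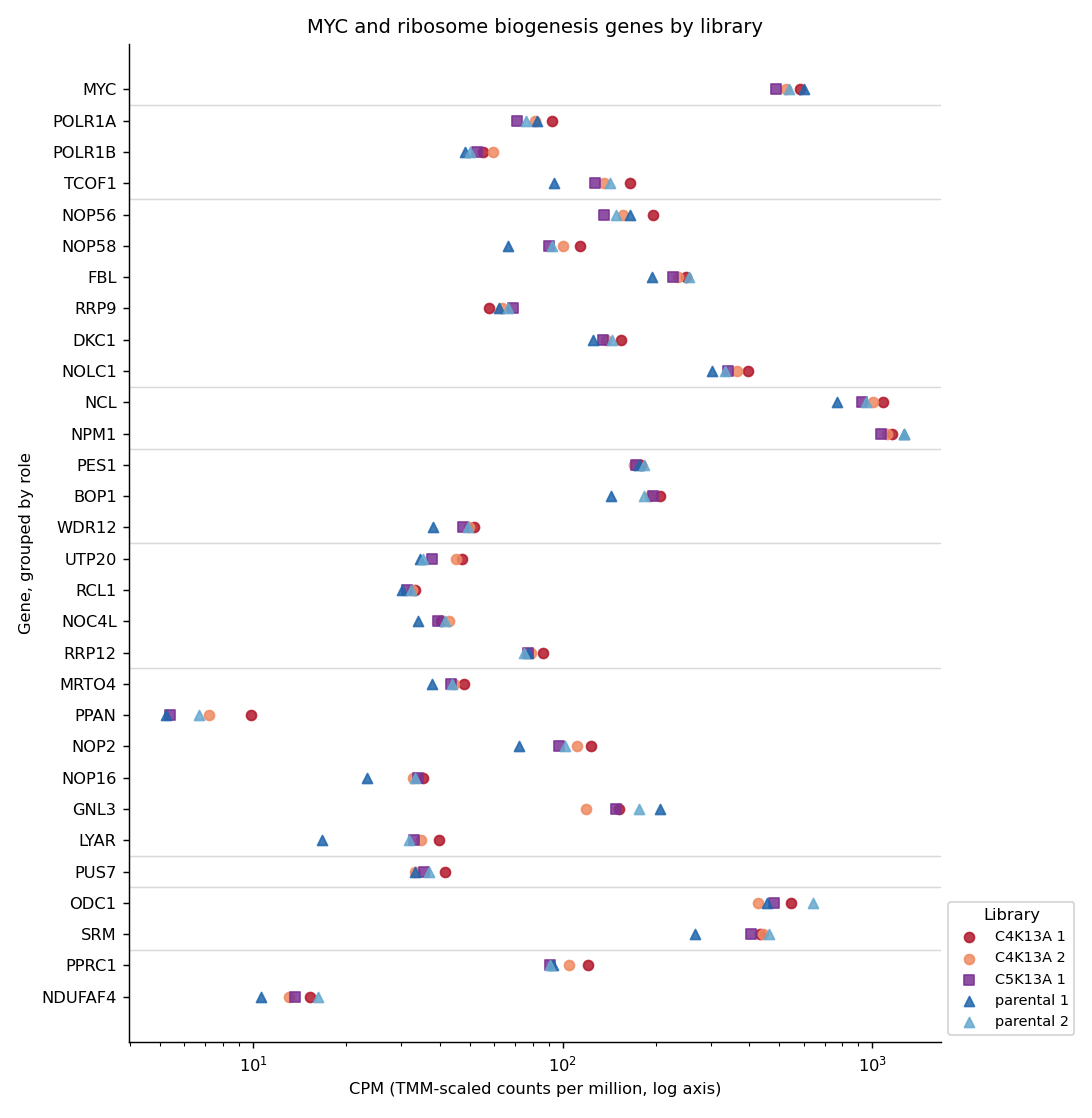
CPM of each of the 30 genes in each library on a log axis, one row per gene grouped by role; circles are C4K13A, squares C5K13A and triangles parental libraries. Parental library 1 is the lowest point in 19 rows and C4K13A library 1 the highest in 19.

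The size of these positive values depended on which parental library was used. Parental library 1 had the lowest level of the 5 libraries in 19 genes, and C4K13A library 1 the highest in 19. Of the 30 genes, 24 were lower in parental library 1 than in parental library 2. The median difference over all 30 was -0.21 on the log2 scale. Over all genes tested 49.6% were lower and the median was 0.00667. In 22 genes the gap between the 2 parental libraries was wider than the gap between the K13A and parental means (59.6% of all genes). Without parental library 1 the median fold change over K13A libraries was 0.02, with 18 of 30 positive; without parental library 2 it was 0.26, with 24 positive. C4K13A library 1 exceeded parental library 1, the other library with little residual ribosomal RNA, in 26 of 30 genes (median 0.36). Among the libraries with more of it, the mean of C4K13A library 2 and C5K13A exceeded parental library 2 in 13 of 30 (median -0.02). With 1 parental library on each side of this split, residual ribosomal RNA and the library itself cannot be told apart. In C4K13A and parental cells the split also follows the replicate number. With the split as a covariate the median was 0.12.

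**Figure D2:**
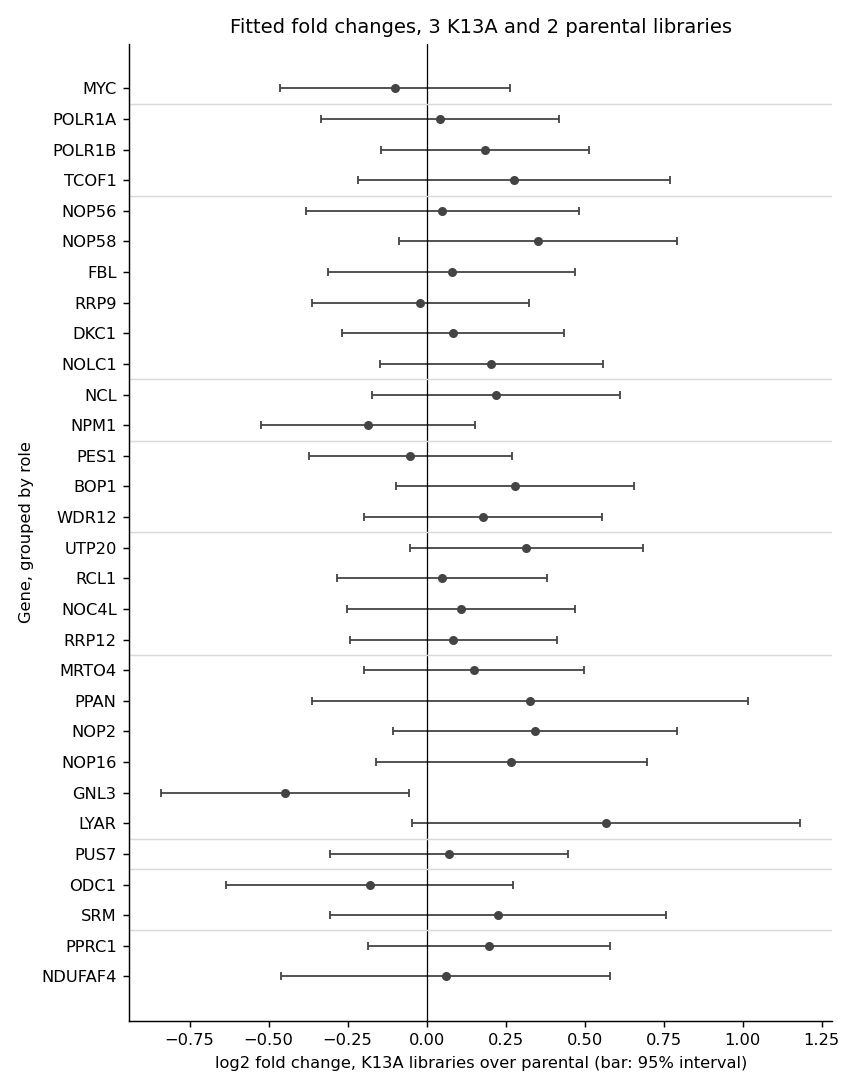
Fitted log2 fold change of each gene, 3 K13A over 2 parental libraries, with 95% intervals; the vertical line marks 0. The GNL3 interval (-0.84 to -0.06) lies below 0, before adjustment for the number of genes tested, and the others include 0.

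**Figure D3:**
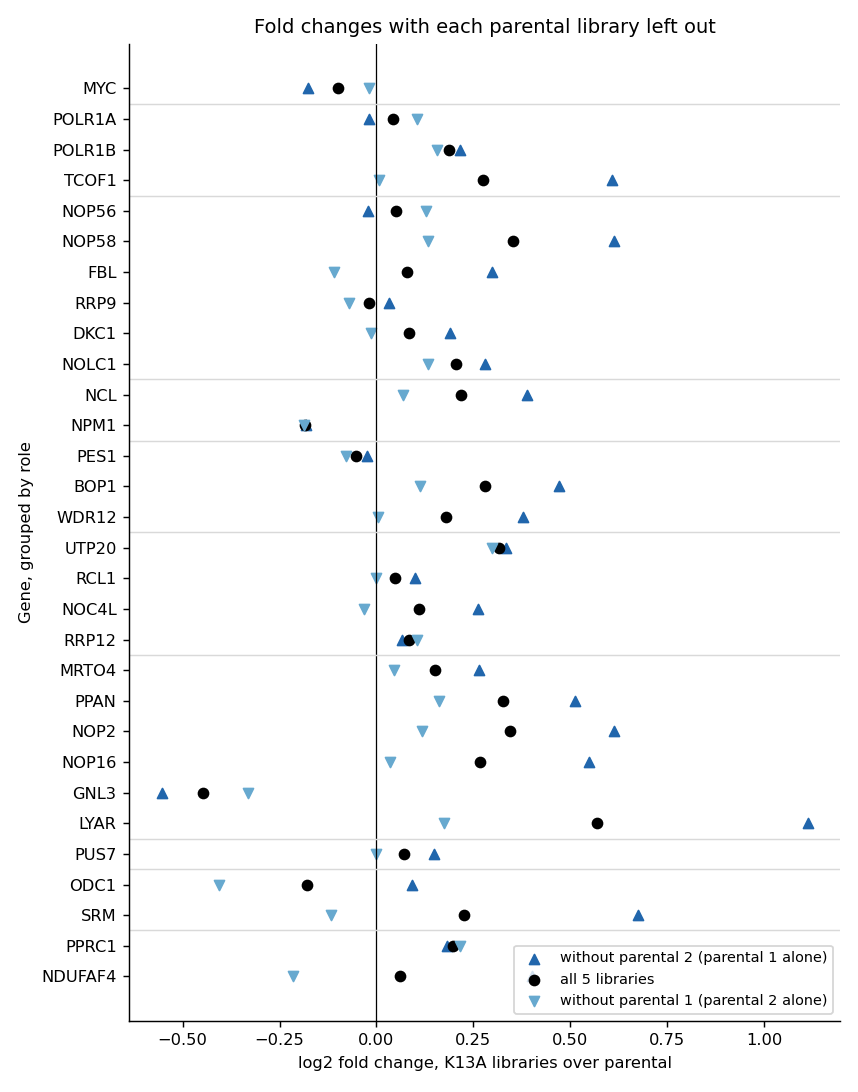
The same fold changes with all 5 libraries (black circles), with parental library 1 as the only parental library (dark triangles) and with parental library 2 as the only one (light triangles). LYAR ranges from 0.17 to 1.11, GNL3 from -0.55 to -0.33 and SRM from -0.12 to 0.68.

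The RNA polymerase I group held 2 subunits and a cofactor, with positive fold changes in all 3 and no call. POLR1A, the largest subunit, had 92.3 and 81.6 CPM in C4K13A cells and 71.0 CPM in C5K13A cells, against 82.8 and 75.9 CPM in parental cells. POLR1B, the second largest subunit, had 55.3 and 59.4 CPM in C4K13A cells and 52.9 CPM in C5K13A cells, against 48.2 and 50.1 CPM in parental cells. POLR1B did not overlap between the groups (log2 fold change 0.19 ± 0.14, adjusted p = 0.674) and POLR1A did (0.04 ± 0.16, adjusted p = 0.950). TCOF1, the nucleolar protein treacle that helps polymerase I transcription, had 164 and 136 CPM in C4K13A cells and 127 CPM in C5K13A cells, against 93.6 and 142 CPM in parental cells (0.28 ± 0.21, adjusted p = 0.676). The spread of TCOF1 was mostly that between the parental libraries.

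Among the snoRNP proteins, FBL, fibrillarin, the box C/D methyltransferase, had 250.5 and 236 CPM in C4K13A cells and 226 CPM in C5K13A cells, against 193.5 and 256 CPM in parental cells. NOP56, its core partner, had 195 and 156 CPM in C4K13A cells and 135 CPM in C5K13A cells, against 165 and 148 CPM in parental cells. NOP58, the paralog of NOP56 in the same particle, had 114 and 99.9 CPM in C4K13A cells and 90.5 CPM in C5K13A cells, against 66.4 and 92.3 CPM in parental cells. The groups overlapped in all 3. The log2 fold change was 0.08 ± 0.17 for FBL (adjusted p = 0.898), 0.05 ± 0.19 for NOP56 (adjusted p = 0.948) and 0.35 ± 0.19 for NOP58 (adjusted p = 0.537). NOP56 was among the 3 genes of lowest p between the clones, at -0.37 ± 0.24 for C5K13A against C4K13A (adjusted p = 0.902). RRP9, a component of the U3 snoRNP, had 57.7 and 63.8 CPM in C4K13A cells and 69.0 CPM in C5K13A cells, against 62.1 and 66.6 CPM in parental cells. DKC1, dyskerin, the pseudouridine synthase of box H/ACA snoRNPs, had 154 and 138 CPM in C4K13A cells and 135 CPM in C5K13A cells, against 125 and 144 CPM in parental cells. NOLC1, a snoRNP chaperone, had 396 and 366 CPM in C4K13A cells and 341 CPM in C5K13A cells, against 303 and 335 CPM in parental cells. RRP9 differed least (-0.02 ± 0.15, adjusted p = 0.980), DKC1 was at 0.08 ± 0.15 (adjusted p = 0.878), and NOLC1, the one without overlap, was at 0.20 ± 0.15 (adjusted p = 0.664).

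The abundant nucleolar phosphoproteins had opposite signs. NCL, nucleolin, had 1079 and 1003 CPM in C4K13A cells and 923 CPM in C5K13A cells, against 766 and 955 CPM in parental cells. NPM1, nucleophosmin, had 1158 and 1114 CPM in C4K13A cells and 1069 CPM in C5K13A cells, against 1265 and 1266 CPM in parental cells. Each K13A library was below both parental ones for NPM1 (-0.18 ± 0.15, adjusted p = 0.685), the groups overlapped for NCL (0.22 ± 0.17, adjusted p = 0.677), and neither gene passed the test. Reads of NPM1 can match its 45 annotated pseudogenes, whose summed level was 103 and 99.3 CPM in C4K13A, 98.3 CPM in C5K13A, and 117 and 120.0 CPM in parental cells.

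PES1, BOP1 and WDR12 form the PeBoW complex, which matures the large subunit. PES1, pescadillo, had 178 and 169 CPM in C4K13A cells and 173 CPM in C5K13A cells, against 177 and 183 CPM in parental, the narrowest range of the 30 genes (1.08-fold from lowest to highest). BOP1 had 206 and 191 CPM in C4K13A cells and 196 CPM in C5K13A cells, against 143 and 183 CPM in parental cells. WDR12 had 51.5 and 49.8 CPM in C4K13A cells and 47.5 CPM in C5K13A cells, against 38.2 and 49.4 CPM in parental cells. BOP1 was above parental in each K13A library but did not pass (0.28 ± 0.16, adjusted p = 0.570), nor did WDR12 (0.18 ± 0.16, adjusted p = 0.730) or PES1 (-0.05 ± 0.14, adjusted p = 0.922). For C5K13A alone against parental BOP1 was at 0.27 ± 0.24 (adjusted p = 0.873).

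Of the small subunit assembly factors, UTP20 stood apart from parental most clearly. It had 47.3 and 45.3 CPM in C4K13A cells and 37.9 CPM in C5K13A cells, against 34.6 and 35.3 CPM in parental cells (0.32 ± 0.16, 95% interval -0.05 to 0.68, adjusted p = 0.509). The groups did not overlap and the parental libraries were close to each other. UTP20 was at 0.40 ± 0.17 in C4K13A against parental (adjusted p = 0.394). RRP12 had 86.0 and 79.1 CPM in C4K13A cells and 77.2 CPM in C5K13A cells, against 77.2 and 75.1 CPM in parental cells (0.09 ± 0.14, adjusted p = 0.862). NOC4L had 40.4 and 42.9 CPM in C4K13A cells and 39.5 CPM in C5K13A cells, against 34.1 and 41.8 CPM in parental cells (0.11 ± 0.16, adjusted p = 0.838). RCL1 had 33.2 and 32.6 CPM in C4K13A cells and 31.4 CPM in C5K13A cells, against 30.3 and 32.4 CPM in parental cells (0.05 ± 0.14, adjusted p = 0.932). In each of RRP12, NOC4L and RCL1 the groups overlapped.

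Large subunit factors held both ends of the range. GNL3, the nucleolar GTPase nucleostemin, had 151 and 119 CPM in C4K13A cells and 149 CPM in C5K13A cells, against 205 and 176 CPM in parental cells. Its fold change was -0.45 ± 0.17 (95% interval -0.84 to -0.06, unadjusted p = 0.0297, adjusted p = 0.397). All K13A libraries lay below both parental ones, opposite in sign to most of the list. GNL3 was at -0.50 ± 0.20 in C4K13A (adjusted p = 0.374) and -0.35 ± 0.25 in C5K13A (adjusted p = 0.859), each against parental. LYAR, a nucleolar growth regulator, had 39.9 and 34.8 CPM in C4K13A cells and 33.2 CPM in C5K13A cells, against 16.6 and 31.9 CPM in parental cells (0.57 ± 0.27, 95% interval -0.05 to 1.18, adjusted p = 0.482). The value of LYAR in parental library 1 was far below the other 4 libraries. By clone LYAR was at 0.62 ± 0.29 in C4K13A (adjusted p = 0.453) and 0.46 ± 0.35 in C5K13A (adjusted p = 0.868), each against parental. Without parental library 2 the LYAR values were 1.17 and 1.00. That fit takes the spread of the 1 remaining parental library to be that of the other groups.

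NOP2, a ribosomal RNA methyltransferase, had 124 and 111 CPM in C4K13A cells and 97.2 CPM in C5K13A cells, against 72.5 and 102 CPM in parental cells (0.34 ± 0.19, adjusted p = 0.558). NOP16 had 35.3 and 32.9 CPM in C4K13A cells and 34.0 CPM in C5K13A cells, against 23.3 and 33.2 CPM in parental cells (0.27 ± 0.19, adjusted p = 0.640). In both, parental library 1 was low and parental library 2 near the K13A values. MRTO4 had 48.1 and 44.5 CPM in C4K13A cells and 43.5 CPM in C5K13A cells, against 37.8 and 44.0 CPM in parental cells (0.15 ± 0.15, adjusted p = 0.755). PPAN had 9.82 and 7.20 CPM in C4K13A cells and 5.37 CPM in C5K13A cells, against 5.24 and 6.67 CPM in parental cells (0.33 ± 0.30, adjusted p = 0.730). PPAN had the smallest p of the list between the clones, at -0.66 ± 0.36 for C5K13A against C4K13A (adjusted p = 0.841). Its counts are uncertain, since 59.8% of its exon bases are shared with the read-through gene PPAN-P2RY11 and its neighbour P2RY11, and the read-through gene is listed at 0 in each library. Exons of NOP2 (54.4% of bases) and NOP16 also overlap other annotated genes, and how reads there were assigned is not known from the labels.

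The remaining 5 genes act outside subunit assembly. ODC1, ornithine decarboxylase, the first enzyme of polyamine synthesis, had 544 and 428 CPM in C4K13A cells and 481 CPM in C5K13A cells, against 455 and 642 CPM in parental cells. SRM, spermidine synthase, had 434 and 443 CPM in C4K13A cells and 405 CPM in C5K13A cells, against 268 and 463 CPM in parental cells. For SRM the parental libraries enclosed all K13A values (0.23 ± 0.23, adjusted p = 0.760). For ODC1 they enclosed all but C4K13A library 2, which lay below both parental libraries (-0.18 ± 0.20, adjusted p = 0.776). PUS7, an RNA pseudouridine synthase, had 41.8 and 33.2 CPM in C4K13A cells and 35.7 CPM in C5K13A cells, against 33.4 and 36.9 CPM in parental cells (0.07 ± 0.16, adjusted p = 0.908). PPRC1, a coactivator of mitochondrial biogenesis, had 121 and 105 CPM in C4K13A cells and 90.8 CPM in C5K13A cells, against 93.1 and 90.8 CPM in parental cells (0.20 ± 0.17, adjusted p = 0.705). NDUFAF4, an assembly factor of respiratory complex I, had 15.3 and 13.1 CPM in C4K13A cells and 13.6 CPM in C5K13A cells, against 10.6 and 16.2 CPM in parental cells (0.06 ± 0.23, adjusted p = 0.948). Between the clones PPRC1 was at -0.31 ± 0.22 for C5K13A against C4K13A and did not pass the test (95% interval -0.81 to 0.20, adjusted p = 0.918).

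**Figure D4:**
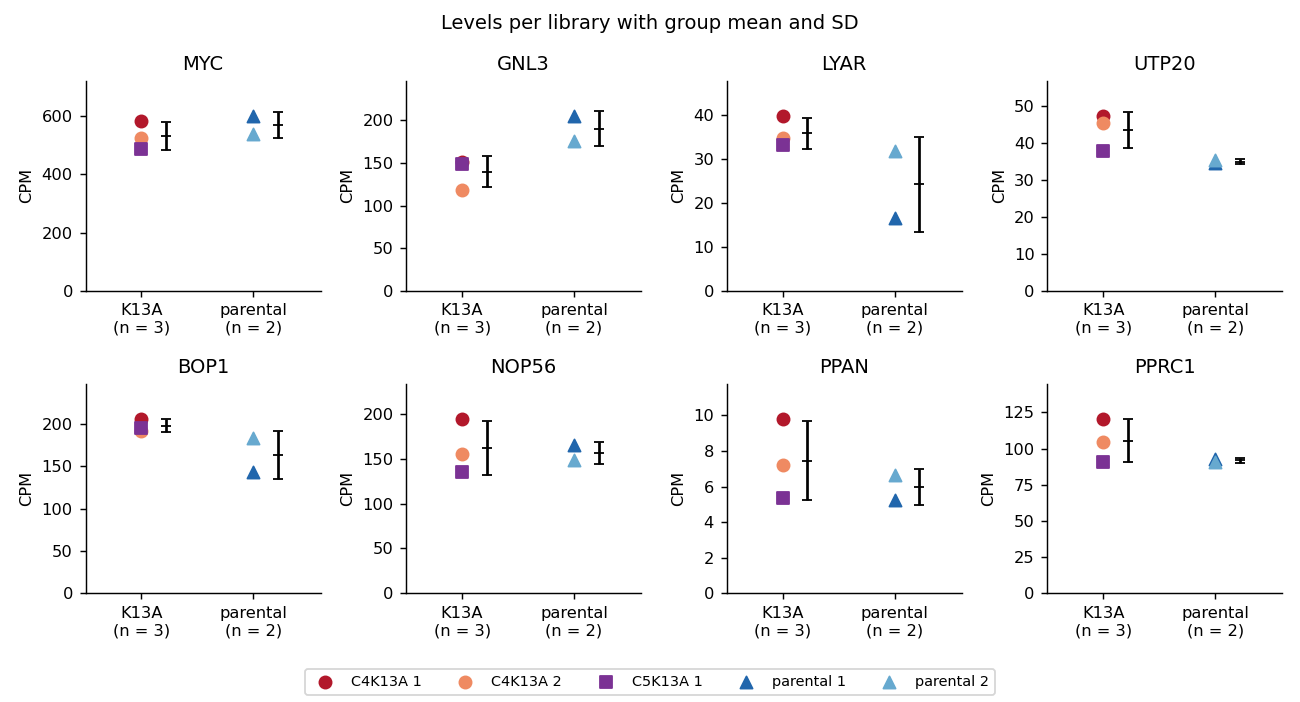
CPM per library of MYC and the 7 genes that were among the 3 of lowest p in a comparison, with the mean and SD of the 3 K13A and 2 parental libraries beside the points; each vertical axis starts at 0. All K13A points lie below both parental points for GNL3 and above them for LYAR, UTP20 and BOP1, where parental library 1 is lowest.

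Per length of exon sequence, the mean level over the 5 libraries spanned NPM1 at 307 CPM per kb down to PPAN at 2.66 CPM per kb. SRM (212), MYC (182), ODC1 (172), NCL (136) and FBL (107 CPM per kb) followed NPM1. UTP20 was second lowest, and WDR12, at 5.20 CPM per kb, was also low. Within a gene the highest library was 1.08-fold (PES1) to 2.40-fold (LYAR) the lowest. MYC was 1.23-fold.

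By clone, C4K13A against parental gave 24 of 30 positive fold changes with a median of 0.17, and C5K13A against parental 21 of 30 with a median of 0.05. The same parental libraries serve both. None of the 30 genes was called in either, where 0.699% of 22743 genes were called in C4K13A (0.0967% higher, 0.602% lower) and 0.0484% in C5K13A (0.0176% higher, 0.0308% lower). At an unadjusted p under 0.05 there were 2 in C4K13A (GNL3 and UTP20, against 12.2% of all genes) and 0 in C5K13A (6.45%). DESeq2 and limma-voom called 0 of the 30 in both. Of all genes they called 745 and 86 in C4K13A and 235 and 0 in C5K13A. In C4K13A 14 genes were above both parental libraries in both libraries, and 2 below, against 21.2% and 22.9% of all genes. The C5K13A library was above both parental libraries in 7 genes and below both in 6, against 31.5% and 35.9% of all genes. Without parental library 1 the median in C5K13A was -0.06, with 9 of 30 positive. Without parental library 2, which leaves 1 parental library, the fold changes in C4K13A were 0.71 for SRM, 0.70 for NOP2 and 0.69 for NOP58.

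C5K13A against C4K13A gave negative fold changes in 27 of 30 genes, with a median of -0.10, and the median of all genes was -0.03. None was called by edgeR, DESeq2 or limma-voom. Of all genes edgeR called 0.0660% (0.0396% higher, 0.0264% lower), DESeq2 182 genes and limma-voom 0. By edgeR 0 of the 30 had an unadjusted p under 0.05 (6.42% of all genes). The C5K13A library was below both C4K13A libraries in 22 of the 30 genes and above both in RRP9, against 36.1% and 34.5% of all genes. C4K13A library 1 was higher than C4K13A library 2 in 26 of 30, with a median difference of 0.12 over all 30. Without C4K13A library 1 the median was -0.06, with 22 negative.

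Other genes of the same machinery were taken from 8 lists. Of 38 genes of the small subunit processome and 40S maturation, 33 had positive values over all K13A libraries (median 0.18), and of 43 genes of 60S maturation 35 did (median 0.14). None was called in either list, where 0.203% of all genes were. UTP4 had 77.6 ± 14.4 CPM in K13A and 50.6 ± 3.75 CPM in parental libraries (SD, n = 3 and 2; 0.62 ± 0.19, adjusted p = 0.306 by edgeR). The K13A mean of UTP4 pools a split by clone. Its C4K13A libraries (87.8 and 83.9 CPM) were far above the C5K13A library (61.2 CPM), which lay nearer parental (48.0 and 53.3 CPM). UTP3, of the same list, had 39.7 ± 1.34 CPM in K13A and 31.0 ± 4.003 CPM in parental libraries (0.35 ± 0.16, adjusted p = 0.459). NIP7, which acts in 60S maturation, had 34.7 ± 7.41 CPM in K13A and 22.6 ± 2.25 CPM in parental libraries (0.62 ± 0.21, adjusted p = 0.352). NIP7 was split by clone as UTP4 was. Its C4K13A libraries (39.6 and 38.4 CPM) exceeded the C5K13A library (26.2 CPM), which was close to parental (21.0 and 24.2 CPM). NMD3, the 60S export adaptor, had the opposite sign, at 25.3 ± 1.19 CPM in K13A and 39.2 ± 3.57 CPM in parental libraries (-0.63 ± 0.15, adjusted p = 0.205). The K13A libraries of NMD3 (24.3 to 26.6 CPM) and of UTP3 (38.2 to 40.9 CPM) lay close together, without such a split. NMD3 was called by DESeq2 (adjusted p = 0.0181) and by edgeR without a filter (adjusted p = 0.0485). These settings called 555 and 1167 of all genes, against 42 in the reported fit. Without parental library 1 the list medians were 0.08 and 0.07, and without parental library 2 they were 0.29 and 0.31.

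The other lists sat near 0 or below. RNA polymerase I machinery had 7 of 15 positive (median -0.00509), MYC network genes 10 of 18 (0.02), snoRNP proteins and assembly factors 9 of 14 (0.05) and other MYC-activated growth genes 15 of 30 (0.00741), with 0 called in each. MNT, a MAX partner that opposes MYC, had 46.2 ± 6.18 CPM in K13A and 69.6 ± 14.6 CPM in parental libraries (-0.59 ± 0.19, adjusted p = 0.311). MLXIPL, the glucose-responsive factor ChREBP, had 1.03 ± 0.307 CPM in K13A and 2.68 ± 0.838 CPM in parental libraries (-1.39 ± 0.38, adjusted p = 0.260, or 0.0406 without a filter). Neither was called with the filter on low counts, and MLXIPL was called without it, where 1167 of all genes were called. CD3EAP, a polymerase I subunit, had 9.99 ± 1.26 CPM in K13A and 5.96 ± 1.81 CPM in parental libraries (0.75 ± 0.26, adjusted p = 0.360). POLR1D, shared by polymerases I and III, had 163 ± 1.22 CPM in K13A and 209 ± 28.5 CPM in parental libraries (-0.36 ± 0.15, adjusted p = 0.447). The 2 subunits thus had opposite signs. ZNHIT3 had 13.1 ± 1.402 CPM in K13A and 19.1 ± 1.57 CPM in parental libraries (-0.54 ± 0.18, adjusted p = 0.332). ZNHIT6 had 35.9 ± 3.30 CPM in K13A and 29.4 ± 0.540 CPM in parental libraries (0.29 ± 0.16, adjusted p = 0.537). Both assist box C/D snoRNP assembly. AMD1, which supplies decarboxylated S-adenosylmethionine for the spermidine synthase reaction of SRM, had 570.0 ± 30.9 CPM in K13A and 374 ± 107 CPM in parental libraries (0.61 ± 0.20, adjusted p = 0.329). SHMT2, the mitochondrial serine hydroxymethyltransferase, had 361 ± 59.1 CPM in K13A and 509 ± 14.8 CPM in parental libraries (-0.49 ± 0.18, adjusted p = 0.371).

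Of 13 genes that MYC is known to repress, 5 had positive and 8 negative values (median -0.03), and TXNIP was the 1 called. TXNIP, which limits glucose uptake, had 58.4 and 85.8 CPM in C4K13A cells and 106 CPM in C5K13A cells, against 1.82 and 4.96 CPM in parental cells (4.63 ± 0.48, adjusted p = 0.0182). It rose in K13A, with adjusted p of 0.136 without parental library 1, 0.0867 without C4K13A library 2 and 0.0580 with the C4K13A libraries summed. TXNIP was put on this list with its rise in these libraries already known. Long noncoding RNAs that host snoRNAs were lower in value in 11 of 14 over all K13A libraries (median -0.28) and in 14 of 14 in C5K13A against parental (median -0.49), with 0 called. The latter rests on 1 C5K13A library. In it 12019 of 22743 genes had negative values, with a median of -0.03, and 0.0484% were called. GAS5 had 114 and 88.2 CPM in C4K13A cells and 60.6 CPM in C5K13A cells, against 209 and 90.0 CPM in parental cells (-0.77 ± 0.36, adjusted p = 0.484). Without a filter, where 1167 of all genes were called, the adjusted p of GAS5 by edgeR was 0.00192. SNHG8 had 57.9 and 68.6 CPM in C4K13A cells and 63.5 CPM in C5K13A cells, against 93.1 and 71.8 CPM in parental cells (-0.38 ± 0.17, adjusted p = 0.461). Parental library 1 was the highest for both host genes. Without it the list median was -0.06 over all K13A libraries (5 of 14 positive), 0.13 in C4K13A (8 of 14 positive) and -0.40 in C5K13A (0 of 14 positive), each against parental.

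**Figure D5:**
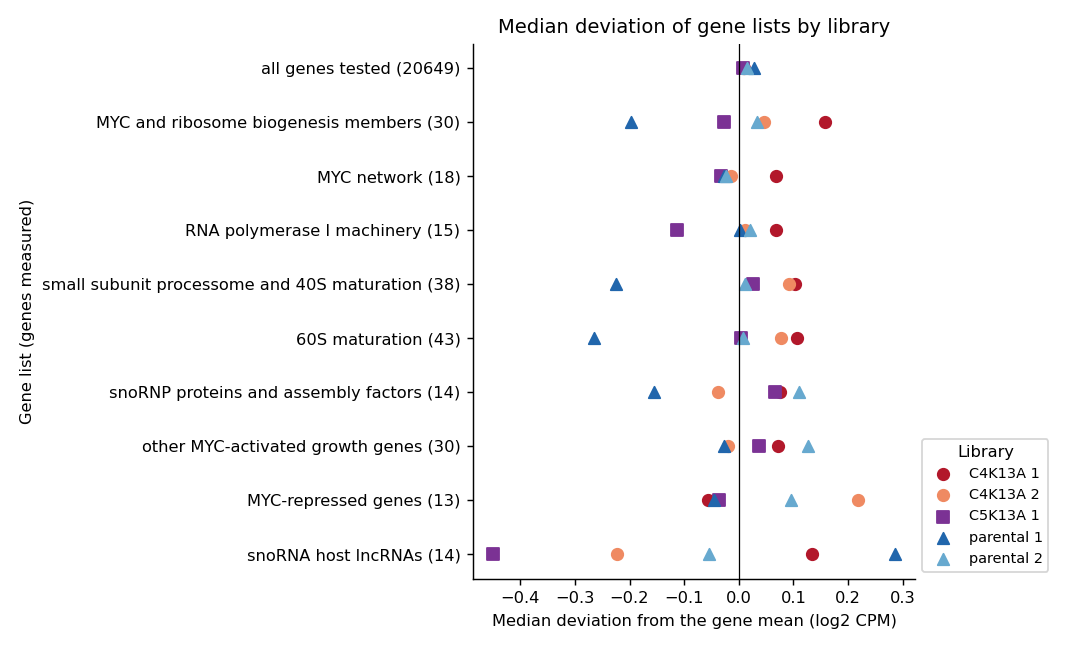
Median deviation of each gene list from the gene's own mean over the 5 libraries, in log2 CPM, one point per library, with the number of genes measured in brackets. Parental library 1 is at -0.20 for the 30 genes, -0.22 for the small subunit list and -0.26 for the 60S list, and at 0.29 for snoRNA host RNAs, while all genes stay between 0.00788 and 0.03.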

How the data were processed

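Per the labels' protocols, RiboErase removed ribosomal RNA from DNase-treated total RNA before HiSeq sequencing. The submitters' processing notes name featureCounts 1.4.6-p5 (Subread), STAR 2.5 and bcl2fastq. The build, annotation, strand setting and treatment of multiply aligned reads were not given in the sources used, so reads of a gene and an antisense partner cannot be told apart. The deposited values are whole-number counts per Ensembl gene, not normalized. Groups came from sample titles. Whether replicates are separate cultures is not said, and p-values then reflect nothing beyond library-to-library spread, which may be technical.

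Symbols, positions and exon lengths came from GENCODE v29 (GRCh38), which held 55297 of the 58812 IDs. The test was edgeR 4.0.16 under R 4.3.3, with filterByExpr, TMM factors and quasi-likelihood fits, with Benjamini-Hochberg adjustment over all genes tested and a threshold of 0.05. K13A against parental used 2 groups (3 residual degrees of freedom). Comparisons by clone shared 1 fit of 3 groups (2 residual degrees of freedom); the single C5K13A library takes its spread from the other groups. SE came from the fold change and the F statistic. CPM uses TMM-scaled totals, and medians by library use log2 CPM with a prior count of 2. Alternatives were RLE factors, no filter, DESeq2 1.42.0, limma-voom (limma 3.58.1), a covariate for residual mitochondrial ribosomal RNA (above or below 200 CPM), a 3-group fit, summed C4K13A libraries, a replicate block and each library left out. Fits were tested on simulated data. The simulation set larger fold changes than most of those found here and no shift between libraries of a group. It does not show how the fits handle small changes or such a shift. The genes and lists were chosen with earlier results of these data known. Beside MYC, the 3 genes of lowest p in each comparison are also given for that comparison. From each list up to 4 called genes, or else 2 of lowest p, are named for all K13A libraries.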

Additional observations from a re-analysis of the deposited data

How the results depend on the processing

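The count of genes called over the whole table moved with the settings, while calls among the 30 genes stayed at 0 except without parental library 2. Without a filter, with DESeq2, with limma-voom and with the ribosomal RNA covariate the table gave 1167, 555, 11 and 71 calls for K13A against parental (42 as reported). The same settings gave 1346, 745, 86 and 777 for C4K13A (159), 578, 235, 0 and 105 for C5K13A (11), and 423, 182, 0 and 92 for C5K13A against C4K13A (15). The 3-group fit gave 105 and summed C4K13A libraries 11 for K13A against parental. Limma-voom, with 0 calls, had 1133 and 1104 genes at an unadjusted p under 0.05 in the last 2 comparisons. With single libraries left out the counts ran from 0 to 130, 130 to 1667, 41 to 668 and 51 to 155 in these 4 comparisons, with the 0 for K13A without parental library 1 (1194 at an unadjusted p under 0.05). Among the 30 genes, calls then arose only without parental library 2, in each clone against parental, and all were higher. That fit keeps 1 parental library and also gave the highest counts over all genes for both clones. The genes were SRM (log2 fold change 0.71), NOP2 (0.70), NOP58 (0.69) and LYAR (1.17) in C4K13A, and LYAR (1.00) in C5K13A. The median of the 30 genes, with single libraries left out, ran from 0.020046 to 0.26 for K13A and 0.06 to 0.29 for C4K13A. It ran from -0.06 to 0.15 for C5K13A and -0.17 to -0.06 between the clones. The cause of these shifts was not tested.

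Fold changes near 0 changed sign in some settings. In the 3-group fit POLR1A had -0.0109, NOP56 -0.020045 and RRP9 0.0106, and with summed C4K13A libraries they had -0.00389, -0.00532 and 0.00662. With single libraries left out, log2 fold changes over K13A libraries ran from -0.0596 to 0.13 for POLR1A, -0.11 to 0.16 for NOP56, -0.0845 to 0.0414 for RRP9, -0.0316 to 0.15 for PUS7, -0.22 to 0.40 for NDUFAF4, -0.11 to 0.30 for FBL, -0.0150 to 0.19 for DKC1, -0.0308 to 0.26 for NOC4L, -0.12 to 0.68 for SRM and -0.41 to 0.0907 for ODC1. In C4K13A against parental MYC ran from -0.12 to 0.0382.

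Replicate numbers recur in C4K13A and parental. Deviations of libraries of the same number correlated at 0.196 across genes over only 2 pairs, so the numbers were not taken as pairs in the reported fits. With a replicate block 885 genes were called in C4K13A, 0 of the 30 among them, and the median of the 30 was 0.17. In the C4K13A and parental libraries this block is the same split as residual ribosomal RNA above or below 200 CPM. Replicate number and residual ribosomal RNA therefore cannot be told apart there. The lowest count of any of the 30 genes in a library was 228, for PPAN in C5K13A.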

Other observations

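Several of the 30 genes carry snoRNA genes within their bounds. GENCODE v29 places 22 snoRNA genes of the count table inside 7 of the 30 genes, on the same strand. Of these, 8 had 0 counts in all 5 libraries, among them SNORD86 and SNORD57 in NOP56, and each of the 8 overlaps annotated exon bases of its host. How reads in such overlaps were counted is not known from the labels, so these zeros do not show that the snoRNAs were absent. SNORA80B, inside ODC1, had 80 and 38 counts in C4K13A and 23 in C5K13A, against 83 and 48 in parental. No other had more than 18 counts in a library. Counts this low do not show whether the snoRNAs differed, and reads of unspliced host RNA fall in the same positions.

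The 12 genes with an E-box in the promoter window had a median log2 fold change of 0.07 over K13A libraries, with 8 positive. The 12 with a window and no E-box had a median of 0.14, with 11 positive. The difference was not tested.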
